A study of Mus musculus with 9 samples.

Results

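The 9 genes described here encode the enzymes of the purine nucleotide cycle and of AMP handling in muscle, namely Ampd1, Ampd2, Ampd3, Adsl, Adss, Adssl1, Ak1, Nt5c1a and Ada. They were taken by symbol from the 35275 genes of the deposited table, and all 9 were found, each on 1 row. Ak1 was the only adenylate kinase among them, and others of the family are given further on. RNA was sequenced from gastrocnemius, the large calf muscle, of C57BL/6J wild type mice studied at 8 to 10 weeks of age. One group carried an osmotic minipump, an implanted capsule with a constant outflow, that delivered ammonium acetate at 2.5 mmol/kg/day (5 libraries, numbers 4 to 8). The other carried a pump with sterile phosphate-buffered saline, PBS (4 libraries, numbers 4, 5, 7 and 8). In both groups the muscle was taken 4 weeks after the pump was placed. The series examines how muscle responds to raised ammonia. The labels do not tell whether the libraries come from different animals, so the spread behind each p-value is one between libraries and may be technical. The sources used here do not give the sex of the mice.

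In the purine nucleotide cycle, AMP deaminase removes the amino group of AMP as ammonia and leaves IMP. Adenylosuccinate synthase then joins aspartate to IMP, and adenylosuccinate lyase splits the product into fumarate and AMP, so that a turn of the cycle releases ammonia from aspartate. The cycle is most active in fast fibres during intense contraction and is a source of ammonia within the muscle itself. Adenylate kinase supplies it with AMP by turning a pair of ADP molecules into ATP and AMP, cytosolic nucleotidases turn AMP that leaves it into adenosine, and adenosine deaminase acts on that adenosine.

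Values are FPKM, fragments relative to gene length and to the fragments counted in the library, so levels of different genes may be compared per length. The reads behind the values numbered between 24930547 and 41780251 per library. The myosin heavy chain of the fastest fibres, Myh4, stood between 3372 and 8796 FPKM, and that of slow fibres, Myh7, between 10.2 and 111 FPKM. Ammonium acetate 6 and 8 stood apart from the rest by gene length. In the fifth of genes with the greatest length (4839 bases or more) their median log2 deviations from the mean of all libraries were -0.41 and -0.26, while the other 7 libraries lay between -0.06 and 0.28. Ammonium acetate 5 carried skin markers, with a sum over Krt5, Krt10, Krt14 and Lor of 56.6 FPKM, against at most 1.22 in any other library.

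The levels of the 9 genes spanned a factor of 2790 between their means over all libraries. Ak1 was highest at a mean of 814 FPKM, followed by Adssl1 (638), Ampd1 (322), Adsl (39.2), Nt5c1a (14.3), Ampd3 (3.12), Adss (3.04), Ampd2 (1.003) and Ada (0.292). Each gene stood above the next in 9 of 9 libraries, except that Ampd3 exceeded Adss in 4 of 9, so these neighbours did not differ beyond their spread. Among the 11337 genes tested, Ak1 ranked 51, Adssl1 58 and Ampd1 133 by mean FPKM. Ampd1 and Adssl1, the muscle forms, thus led the other genes of their step in every library.

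**Figure D1:**
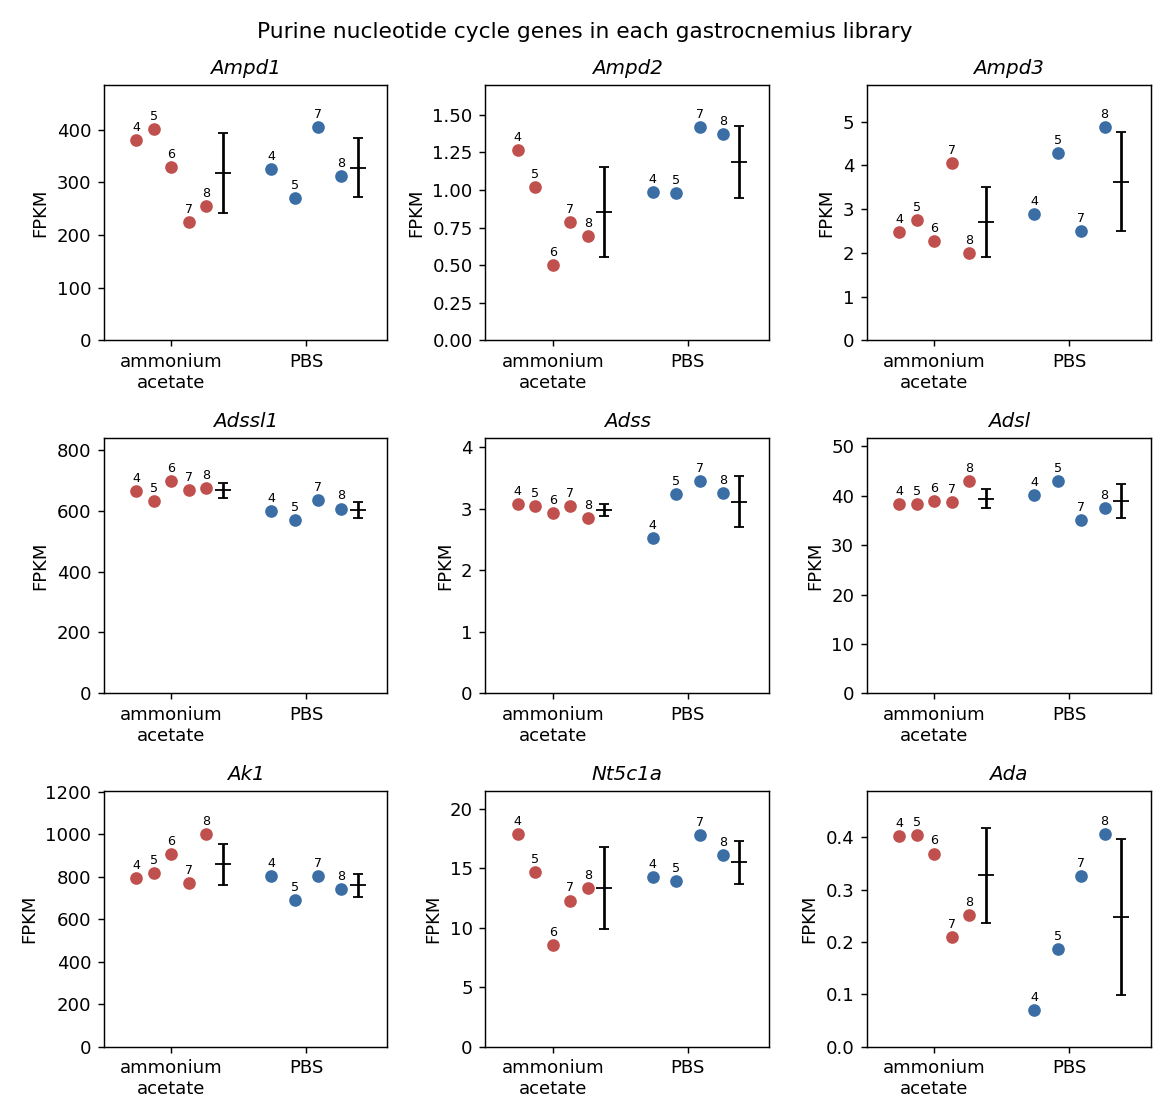
FPKM of each of the 9 genes (vertical axes, starting at 0) in the ammonium acetate libraries (red, left) and the PBS libraries (blue, right), with the library number above each point and the group's mean and SD as a bar at its right. The ranges of the groups overlapped in all 9 genes, and Adssl1 came nearest to separating, with 4 of the 5 ammonium acetate libraries above the highest PBS library. In Ak1 there were 3 above it, and in Ampd2, Ampd3 and Nt5c1a 3 below the lowest PBS library.

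AMP deaminase was represented almost wholly by Ampd1, the skeletal muscle form (ENSMUSG00000070385, chromosome 3, 103074014 to 103099714, plus strand, mm10). Ampd1 measured 380.3, 400.1, 329, 224 and 254 FPKM in ammonium acetate libraries 4 to 8, against 325, 270.4, 404 and 311 in PBS libraries 4, 5, 7 and 8. Libraries 7 and 8 of ammonium acetate lay below every PBS library, and the other 3 lay within the PBS range. The means were 318 ± 76.7 FPKM in ammonium acetate and 328 ± 55.9 in PBS (SD, n = 5 and 4). Its log2 fold change was -0.07 (standard error 0.18), on the log2(FPKM + 0.5) scale used for all fold changes here. Its 95% interval ran from -0.47 to 0.34, which leaves room for a level 0.724 to 1.26 times that of PBS. The sign turned when libraries were weighted by quality (0.14).

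Ampd3, the form known from red cells (ENSMUSG00000005686, chromosome 7, 110768206 to 110812405, plus strand), measured 2.47, 2.74, 2.26, 4.06 and 1.996 FPKM in ammonium acetate, against 2.88, 4.28, 2.49 and 4.86 in PBS. The values were not spread evenly: ammonium acetate 7, PBS 5 and PBS 8 stood at 4.06 or more, and the other 6 libraries at 2.88 or less. The means were 2.71 ± 0.805 and 3.63 ± 1.13 FPKM in ammonium acetate and PBS, with a log2 fold change of -0.36 (standard error 0.21, interval -0.82 to 0.11) that was -0.19 without ammonium acetate 6 and 8. With single libraries left out it ran from -0.50 without PBS 7 to -0.22 without PBS 8. The 6 red cell markers summed to between 108 and 164 FPKM in ammonium acetate and between 167 and 221 in PBS, a pair of ranges that did not overlap. Of the single genes tested, 0.873% did not overlap in this direction, a share that is not one for sums of genes. Taken singly, Hba-a1 and Alas2 did not overlap between the groups, while Hba-a2, Hbb-bs, Hbb-bt and Slc4a1 did. By library the sum was 108 FPKM in ammonium acetate 7, 221 in PBS 5 and 186 in PBS 8, where Ampd3 was at 4.06 or more. In PBS 4, where Ampd3 was 2.88, the sum was 220 FPKM. These sums were nearly all globin, and the red cell membrane transporter Slc4a1 stood at or below 0.06 FPKM everywhere and at 0 in 1 library or more. The part of red cells in the values of Ampd3 was not tested, and in whole muscle fewer cells of a type and less RNA per cell cannot be told apart. Of the annotated exon bases of Ampd3, 195 are shared with Rnf141 on the opposite strand (mean 8.295 FPKM) and 196 with B430319F04Rik, also opposite. Another 83 are shared with the microRNA gene Gm47282 on the same strand. The sources used here do not give the strand setting, without which reads of opposite strands cannot be told apart.

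Ampd2, the form found in most non-muscle tissues (ENSMUSG00000027889, chromosome 3, 108074062 to 108086651, minus strand), measured 1.27, 1.02, 0.502, 0.785 and 0.692 FPKM in ammonium acetate, against 0.985, 0.980, 1.42 and 1.37 in PBS. Ammonium acetate 6, 7 and 8 lay below every PBS library, and 4 and 5 lay within the PBS range. The log2 fold change was -0.34 (standard error 0.18, interval -0.73 to 0.06), and it was -0.15 without ammonium acetate 6 and 8. Only 47 to 216 reads stood behind each of these values. Read counts recovered from the table gave -0.53 with limma's voom. Of its exon bases, 434 are shared with the antisense gene Gm12500 (mean 0.0110 FPKM).

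Taken as shares of the summed FPKM of the 3 deaminase genes, Ampd1 made up 98.8% ± 0.527 in ammonium acetate and 98.5% ± 0.511 in PBS. Ampd3 made up 0.911% ± 0.483 and 1.14% ± 0.474, and Ampd2 0.269% ± 0.0762 and 0.359% ± 0.0554, in ammonium acetate and PBS (SD, n = 5 and 4). The ratio of Ampd1 to Ampd3 was 55.3 in ammonium acetate 7, 63.2 in PBS 5 and 64.0 in PBS 8, and between 113 and 162 in the other 6 libraries. For Ampd1 and Ampd3 the group means of the share lay closer together than 1 SD of either group, and for Ampd2 they lay farther apart than that, with ranges that overlapped.

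Adenylosuccinate synthase is encoded by a muscle gene, Adssl1, and a gene of other tissues, Adss. Their promoters are shown because these genes serve the same step at levels far apart, and RefSeq has a window for both. The 250 bases before each start site are printed 5′ to 3′ from RefSeq (GRCm38.p6), with capitals for CANNTG, the E-box letters that myogenic factors such as MyoD can bind, and for GGGCGG, the GC box, also where it reads as CCGCCC from the other strand. The Adssl1 window is chr12:112619797-112620046 on the plus strand and the Adss window chr1:177796510-177796759 on the minus strand.
Adssl1: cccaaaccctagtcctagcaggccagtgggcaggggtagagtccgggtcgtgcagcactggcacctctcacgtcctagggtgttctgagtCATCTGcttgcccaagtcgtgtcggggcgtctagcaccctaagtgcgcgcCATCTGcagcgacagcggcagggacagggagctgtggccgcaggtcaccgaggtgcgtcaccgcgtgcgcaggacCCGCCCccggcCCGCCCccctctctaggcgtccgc
Adss: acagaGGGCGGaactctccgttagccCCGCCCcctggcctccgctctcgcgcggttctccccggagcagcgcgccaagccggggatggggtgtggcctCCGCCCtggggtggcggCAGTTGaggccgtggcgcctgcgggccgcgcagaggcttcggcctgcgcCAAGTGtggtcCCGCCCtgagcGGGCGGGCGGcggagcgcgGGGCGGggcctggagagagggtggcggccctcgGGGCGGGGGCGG

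Both windows held 2 E-boxes, and in Adssl1 both read CATCTG. An E-box occurs in 66.2% of the 32851 promoter windows of the table, so its presence sets neither gene apart. The GC box occurred 2 times before Adssl1 and 9 times before Adss, counting matches that overlap, and 32.7% of all windows held at least 1. The Adss window was 78.8% G and C with 32 CG pairs, and the Adssl1 window 68.4% with 21, against medians of 52.4% and 6 over all windows. Neither window held TATAAA, nor its reverse complement TTTATA, one of which is found in 12.4% of windows. These are matches of letters and say nothing of what is bound. Of the 9 genes, 8 have an entry in the RefSeq table, and Ampd1 is the other one.

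Adssl1 (ENSMUSG00000011148, chromosome 12, 112620045 to 112641354, plus strand) measured 664, 631, 698, 667 and 674 FPKM in ammonium acetate, against 599, 569, 635 and 607 in PBS. Every ammonium acetate library lay above the PBS mean, and 4 of 5 lay above the highest PBS library, PBS 7. Ammonium acetate 5 was the exception, below PBS 7. The means were 667 ± 24.2 and 602 ± 27.3 FPKM in ammonium acetate and PBS, a log2 fold change of 0.15 (standard error 0.10, interval -0.06 to 0.36). It stayed between 0.082 and 0.21 under the 21 alternatives run. Adssl1 varied little between libraries, with 1.23 times between the highest and lowest of the 9 libraries, against 1.80 times for Ampd1.

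Adss (ENSMUSG00000015961, chromosome 1, 177762962 to 177796511, minus strand) measured 3.07, 3.04, 2.92, 3.04 and 2.85 FPKM in ammonium acetate, against 2.52, 3.23, 3.46 and 3.25 in PBS. The 5 ammonium acetate libraries lay close together and inside the PBS range, which PBS 4 opened downwards. The log2 fold change was -0.05 (standard error 0.11, interval -0.30 to 0.20), and 0.018 with each library centred on its median. Leaving out PBS 4 gave -0.13 and leaving out PBS 7 gave -0.00081. Adssl1 exceeded Adss by 208 to 239 times in ammonium acetate libraries and by 176 to 238 times in PBS libraries. The Adss share of the summed synthase FPKM was 0.446% ± 0.0268 in ammonium acetate and 0.515% ± 0.0652 in PBS (SD, n = 5 and 4).

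Adsl, the lyase that closes the cycle and also acts in the making of IMP from scratch (ENSMUSG00000022407, chromosome 15, 80948490 to 80970947, plus strand), measured 38.2, 38.3, 39.0, 38.6 and 42.9 FPKM in ammonium acetate, against 40.1, 43.0, 35.0 and 37.4 in PBS. Ammonium acetate 4 to 7 lay within 1 FPKM of each other, and ammonium acetate 8 was close to PBS 5. The log2 fold change was 0.02, with the smallest standard error of the 8 genes tested (0.09) and an interval from -0.18 to 0.22, or 0.885 to 1.16 times the PBS level. Its sign was negative in the TPM scaling (-0.043) and without ammonium acetate 6 and 8 (-0.014). Per length, Adssl1 stood 15.7 to 17.9 times above Adsl in ammonium acetate and 13.2 to 18.2 times above it in PBS.

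Ak1, the main cytosolic adenylate kinase of muscle (ENSMUSG00000026817, chromosome 2, 32621758 to 32646805, plus strand), measured 793, 817, 905, 771 and 1002 FPKM in ammonium acetate, against 801, 692, 806 and 741 in PBS. Ammonium acetate 5, 6 and 8 lay above every PBS library, and ammonium acetate 4 and 7 lay within the PBS range. The means were 858 ± 95.3 and 760.0 ± 54.1 FPKM in ammonium acetate and PBS, with a log2 fold change of 0.17 (standard error 0.12, interval -0.09 to 0.43). Without ammonium acetate 8 it was 0.11, and without ammonium acetate 6 and 8 it was 0.07. The deposited span of Ak1 runs past the end of the gene in GENCODE M21 (32635058, the same build) and covers 3 exons of the endothelial gene Eng, which itself averaged 11.2 FPKM, and any part of Eng reads in Ak1 was not tested.

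Nt5c1a, the cytosolic nucleotidase of muscle that turns AMP into adenosine (ENSMUSG00000054958, chromosome 4, 123201504 to 123216275, plus strand), measured 17.9, 14.7, 8.56, 12.3 and 13.3 FPKM in ammonium acetate, against 14.2, 13.9, 17.8 and 16.1 in PBS. Ammonium acetate 6, 7 and 8 lay below every PBS library, and ammonium acetate 4 marginally above the highest. The log2 fold change was -0.24 (standard error 0.18, interval -0.62 to 0.14). It was -0.097 without ammonium acetate 6 alone, -0.06 without ammonium acetate 6 and 8, and -0.36 with each library's trend on gene length removed, Nt5c1a being a gene of 1220 bases.

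Ada, adenosine deaminase, which releases ammonia from adenosine (ENSMUSG00000017697, chromosome 2, 163726584 to 163750239, minus strand), measured 0.403, 0.404, 0.369, 0.210 and 0.252 FPKM in ammonium acetate, against 0.0698, 0.186, 0.326 and 0.407 in PBS. The PBS values reached from below to above all 5 ammonium acetate values. With 4 to 25 reads per library Ada fell under the filter of a mean of 0.5 FPKM and was left out of the comparison. With no filter its log2 fold change was 0.16 (standard error 0.14, adjusted p = 0.725 by limma).

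The comparison of ammonium acetate with PBS found no member changed. By limma with Benjamini-Hochberg adjustment over all genes tested, 0 of the 8 members tested passed 0.05, against 0% of the 11337 genes. Their adjusted p-values ran from 0.527 for Ampd2 to 0.921 for Adsl. At an unadjusted p under 0.05 there were again 0 of 8, against 8.57% of all genes, and limma's voom on recovered reads gave 0 members by either count, with 0 and 924 among all genes. The members whose groups did not overlap were 0 of 8, against 2.13% of genes (1.25% higher and 0.873% lower in ammonium acetate). Of the 8, 3 had positive and 5 negative log2 fold changes, with a median of -0.06, beside -0.03 over all genes, of which 43.9% were positive. The positive ones were Adssl1, Ak1 and Adsl, and the negative ones Ampd1, Ampd2, Ampd3, Adss and Nt5c1a, where the signs of Adsl, Ampd1 and Adss depended on the processing. On the log2(FPKM + 0.5) scale none of the 95% intervals reached a change of 2-fold, and the widest, of Ampd3, ended at 0.567 times PBS. The added 0.5 draws the fold changes of genes at low FPKM towards no change. For Ampd2, adding 0.1 instead gave -0.47 (standard error 0.26), and voom gave -0.53 (standard error 0.26). A 2-fold change in the FPKM of Ampd2 is therefore not excluded. Changes remain possible within the 95% intervals, since a p above the threshold does not show equal levels.

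**Figure D2:**
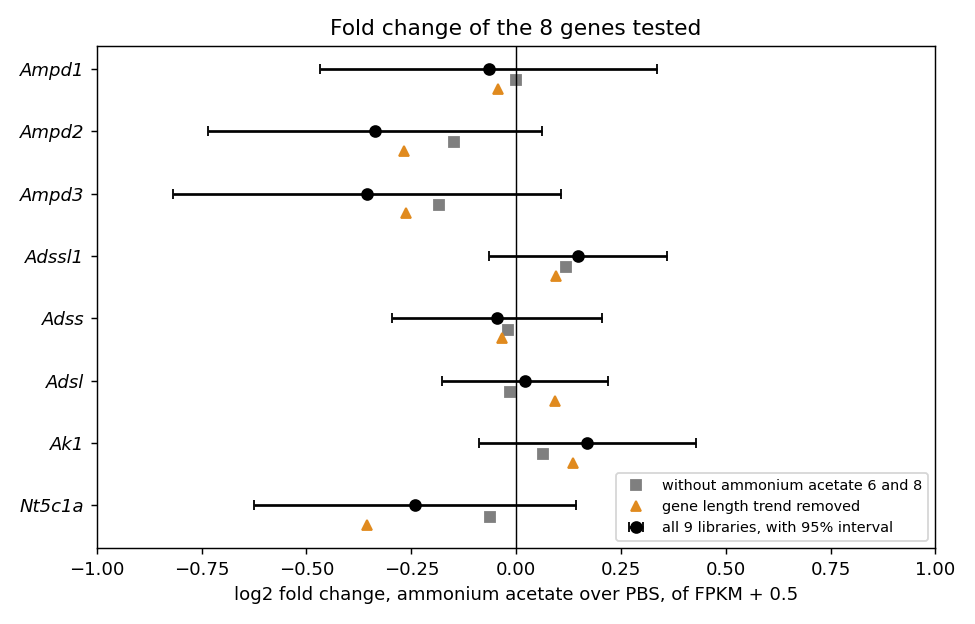
Log2 fold change of ammonium acetate over PBS (horizontal axis, FPKM + 0.5) for the 8 genes tested, with 95% intervals from all 9 libraries (black), the value without ammonium acetate 6 and 8 (grey squares) and with the gene length trend removed (orange triangles). All 8 intervals include 0, and all 8 values lie closer to 0 without ammonium acetate 6 and 8.

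In PBS 5 and ammonium acetate 7 Ampd1 was among its 3 lowest values and Ampd3 among its 3 highest. Ampd1 was lowest in ammonium acetate 7 (224 FPKM), ammonium acetate 8 (254) and PBS 5 (270.4), and Ampd3 was highest in PBS 8, PBS 5 and ammonium acetate 7. The myosins of the intermediate fast fibres were also high in those libraries: Myh2 stood at 563, 511 and 442 FPKM in PBS 8, PBS 5 and ammonium acetate 7, but at 444 in PBS 4, where Ampd3 was 2.88. Myh1 stood at 797, 670.3 and 555 FPKM in the same libraries, and at 554 in PBS 4. Ak4, a mitochondrial adenylate kinase, was at 2.03, 2.33 and 2.07 FPKM in PBS 8, PBS 5 and ammonium acetate 7, and between 0.429 and 0.865 in the other 6. The whole list of 8 fast fibre markers summed to between 48384 and 66025 FPKM in ammonium acetate and between 46402 and 56134 in PBS. Its sums in PBS 8, PBS 5 and ammonium acetate 7 were 46402, 48184 and 48384 FPKM, lower than in every other library. Myh1 and Myh2 thus went against the sum of their list there. The list also split in ammonium acetate 6 and 8, where its sums were highest (66025 and 61819 FPKM). Tnnt3, Tnni2 and Mylpf were highest in this pair of libraries. Myh4 (5236 and 3372), Myh1 (184 and 166) and Myh2 (136 and 94.8) were lowest there. The 7 slow fibre markers summed to between 602 and 1624 FPKM in ammonium acetate and between 561 and 1624 in PBS, and none of these 15 markers was at 0. The share of genes whose 3 highest libraries were PBS 8, PBS 5 and ammonium acetate 7 was 10.9% (1233 of 11337), so these libraries were the highest for many genes besides Ampd3. The sum of the 5 markers of fibroblasts and progenitors, none of them at 0, was highest in those libraries too. It was 490.98, 507.43 and 291.5 FPKM in PBS 8, PBS 5 and ammonium acetate 7, and between 175 and 272 in the other 6. Not every marker followed the sum. In ammonium acetate 7 Lum, at 7.23 FPKM, was below every other library. Pdgfra (2.39) and Dcn (188.5) were lower there than in PBS 7 (3.71 and 201.3). By group this list reached from 175 to 292 FPKM in ammonium acetate and from 176 to 507 in PBS. Markers of macrophages (4 found) summed to between 4.33 and 8.73 FPKM in ammonium acetate and between 3.82 and 12.2 in PBS. Those of smooth muscle (4) summed to between 43.7 and 77.9 FPKM in ammonium acetate and between 50.9 and 68.5 in PBS, and none in either list was at 0. The part of fibre type or of these cells in the values of Ampd3 and Ak4 was not tested.

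**Figure D3:**
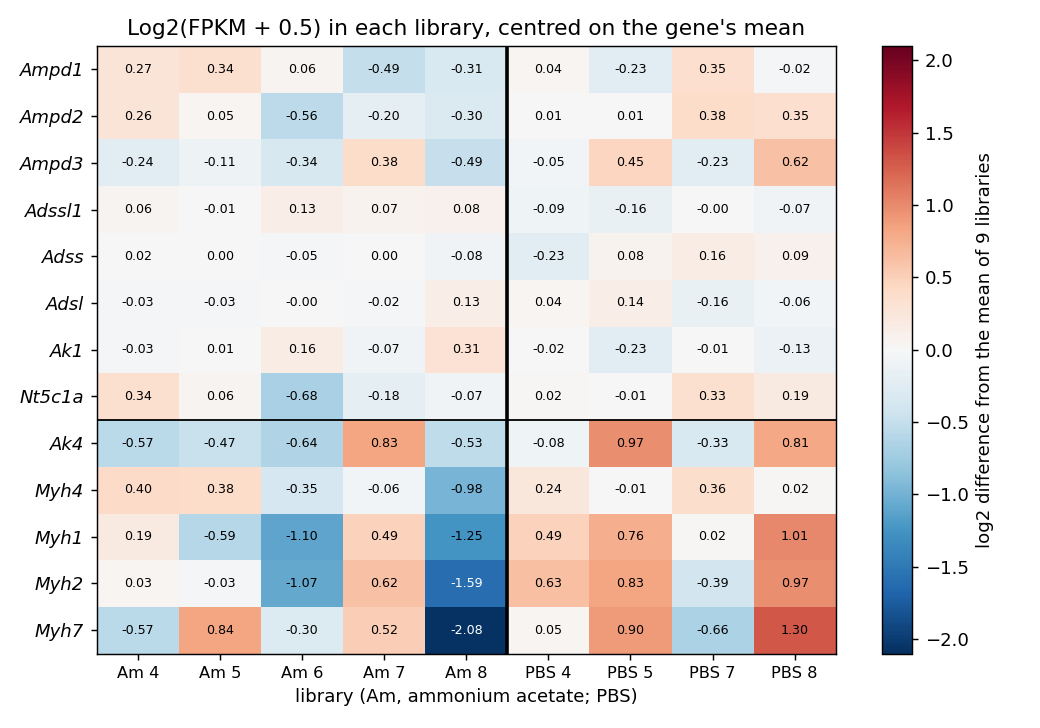
Log2(FPKM + 0.5) of each gene minus its mean over 9 libraries, by library, with ammonium acetate (Am) left of the black line and PBS right of it. The upper 8 rows are the members tested and the lower 5 rows Ak4 and the myosin heavy chains. Ampd3 and Ak4 are above their means in Am 7, PBS 5 and PBS 8 and below them in the other 6 libraries, while Adssl1, Adsl and, apart from PBS 4, Adss stay near 0.

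The genes whose profile over the 9 libraries came nearest to each of 3 members were found by the mean absolute difference of centred log2 values. For Ampd1 these were Xpr1 (0.084), a phosphate exporter, Ttyh2 (0.092), Vwa7 (0.094), Ift122 (0.10) and Zcchc24 (0.10), where the median gene was at 0.33. For Ampd3 they were Ablim1 (0.075), an actin-binding protein, Plce1 (0.094), Clip4 (0.095), Mpzl1 (0.097) and Sipa1l2 (0.097), with a median over all genes of 0.32. For Adssl1 they were Ruvbl2 (0.032), Usp10 (0.033), Zdhhc6 (0.036), Zswim1 (0.039) and Psmd12 (0.039), a proteasome subunit, with a median of 0.20. All libraries enter such a measure together, including those that stand apart by gene length, and the Adssl1 neighbours are mostly genes that hardly vary.

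The rest of purine metabolism was followed in 6 lists with 59 genes, of which 48 were tested. Of these, 18 had positive and 30 negative log2 fold changes, where 43.9% of all genes were positive. Their median was -0.06, beside -0.03 over all genes, and 0 of the 48 passed the adjusted threshold. At an unadjusted p under 0.05 there were 0 higher and 3 lower genes, where 3.21% of all genes were higher and 5.36% lower. Of the other adenylate kinases, 4 of 8 were tested and 1 of 4 lay higher (median -0.02). Ak3, which serves the mitochondrial matrix, measured 28.1 ± 2.35 and 28.1 ± 1.13 FPKM in ammonium acetate and PBS. Ak6, a nuclear form, measured 13.7 ± 1.89 and 11.97 ± 0.412, and Ak4, with the smallest p of the list, 0.804 ± 0.7102 and 1.47 ± 0.836 (log2 fold change -0.62, interval -1.37 to 0.14, and -0.41 without ammonium acetate 6 and 8). The 4 not tested were under the filter. Ak1, with at least 692 FPKM in every library, stood far above these means.

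Among the other nucleotidases and adenosine enzymes, 10 of 12 were tested, 5 higher and 5 lower, with a median of 0.00478. Adk, the kinase that returns adenosine to AMP, measured 34.5 ± 5.28 FPKM in ammonium acetate and 40.7 ± 8.43 in PBS. Nt5c3, a pyrimidine nucleotidase, measured 22.1 ± 1.59 and 21.7 ± 0.809 FPKM in ammonium acetate and PBS. Ahcy, which releases adenosine from adenosylhomocysteine, had the smallest p of the list at 20.4 ± 4.10 and 16.9 ± 1.32 (log2 fold change 0.25, and 0.09 without ammonium acetate 6 and 8). None of the 10 passed the adjusted threshold, and the groups overlapped in each of these 3 genes.

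In purine salvage and degradation all 10 genes were tested, 5 higher and 5 lower (median -0.0036). Gmpr, which turns GMP into IMP, was the most abundant at 105 ± 14.1 FPKM in ammonium acetate and 104 ± 8.06 in PBS. Impdh2, of the opposite branch from IMP towards GMP, measured 31.3 ± 3.02 and 28.6 ± 2.11 FPKM, and Guk1, the GMP kinase, 27.7 ± 7.12 and 23.2 ± 1.03, in ammonium acetate and PBS. Xdh, the xanthine dehydrogenase that makes uric acid, measured 5.09, 4.18, 2.59, 6.29 and 3.26 FPKM in ammonium acetate, against 5.80, 7.89, 4.48 and 12.3 in PBS. The ranges overlapped, and PBS 8 held the highest value. Its log2 fold change was -0.73 (interval -1.34 to -0.12, unadjusted p = 0.0236, adjusted p = 0.527 by limma), and -0.44 without ammonium acetate 6 and 8. Xdh is abundant in endothelium, whose 6 markers summed to between 36.9 and 80.1 FPKM in ammonium acetate and between 77.6 and 88.4 in PBS with none at 0. The part of endothelium in Xdh was not tested.

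Of the 9 genes that build IMP from scratch, all were tested, 4 higher and 5 lower (median -0.03). Paics measured 47.8 ± 4.19 and 42.8 ± 5.18 FPKM in ammonium acetate and PBS, Prps1, which makes the activated ribose, 24.3 ± 2.12 and 22.6 ± 1.06, and Gart 11.8 ± 2.04 and 11.9 ± 0.899. Pfas, which acts between steps carried out by Gart, measured 1.01, 0.957, 0.575, 0.936 and 0.485 FPKM in ammonium acetate, against 0.999, 1.16, 1.45 and 1.58 in PBS. Ammonium acetate 4 lay just above PBS 4, and the other ammonium acetate libraries below every PBS library. The log2 fold change was -0.48 (unadjusted p = 0.0175, adjusted p = 0.527 by limma), and -0.28 both without ammonium acetate 6 and 8 and with the gene length trend removed, for a gene of 6373 bases.

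For adenosine transport, receptors and ecto-enzymes, 9 of 13 genes were tested, 1 higher and 8 lower (median -0.15). Over all genes 43.9% were higher, with a median of -0.03. Adora3 was left out since its symbol is on more than 1 row. The equilibrative transporter Slc29a1 measured 7.57 ± 1.18 and 7.75 ± 0.307 FPKM in ammonium acetate and PBS, and Entpd1, which hydrolyses extracellular ATP, 3.28 ± 0.927 and 3.61 ± 0.332. Slc28a2, a concentrative purine nucleoside transporter, measured 1.96, 2.03, 1.29, 2.04 and 1.80 FPKM in ammonium acetate, against 2.22, 2.44, 2.33 and 3.48 in PBS. Every ammonium acetate library lay below every PBS library, as in 0.873% of all genes in this direction. Its log2 fold change was -0.42 (standard error 0.16, unadjusted p = 0.0210, adjusted p = 0.527 by limma), and -0.30 without ammonium acetate 6 and 8.

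Of the 7 genes that bring aspartate to the cycle and take up its fumarate, 6 were tested, 2 higher and 4 lower (median -0.13). These 6 averaged 83.7 FPKM or more in each group. Slc25a13, under the filter, averaged 0.400 FPKM in ammonium acetate and 0.404 in PBS. The malate dehydrogenases Mdh2 and Mdh1 measured 621 ± 70.2 and 287 ± 55.8 FPKM in ammonium acetate, and 596 ± 70.8 and 310.3 ± 71.9 in PBS. Got2, the mitochondrial aspartate aminotransferase, measured 229 ± 39.3 and 258 ± 40.1 FPKM in ammonium acetate and PBS. Slc25a12, the carrier that exports aspartate from mitochondria, had the smallest p of the list at 83.7 ± 8.41 and 92.9 ± 5.08 (log2 fold change -0.15, -0.07 without ammonium acetate 6 and 8, and 0.05 with the gene length trend removed). None of the 6 passed the adjusted threshold.

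**Figure D4:**
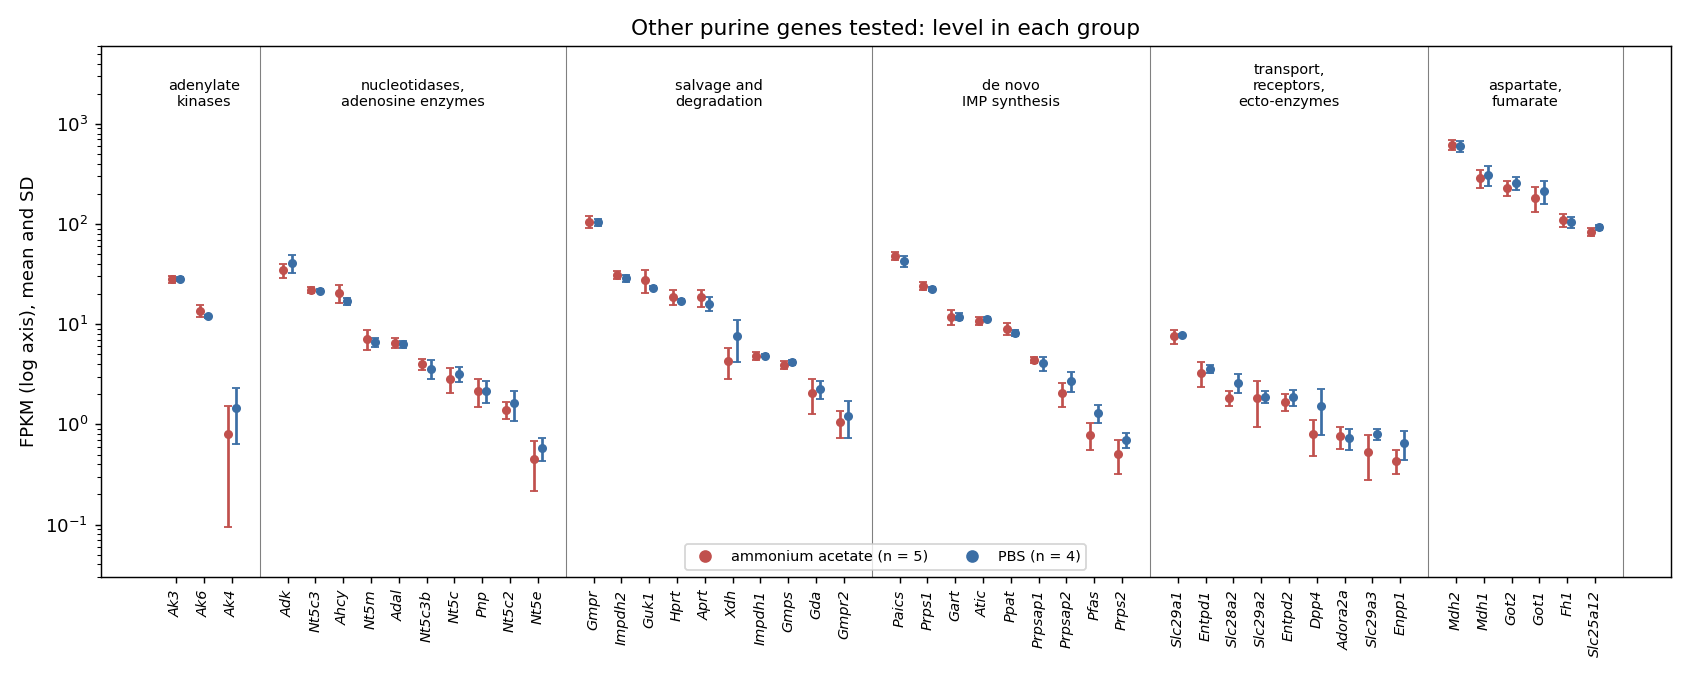
Mean FPKM with SD (vertical log axis) of 47 of the 48 other purine genes tested, grouped by list and sorted by level, in ammonium acetate (red, n = 5) and PBS (blue, n = 4). The means of the groups lie close together over the whole range of levels, with wider gaps in some genes of lower level such as Ak4 and Xdh.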

How the data were processed

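The authors deposited 1 table of FPKM values for 35275 genes in 9 gastrocnemius libraries. HTSeq, STAR, DESeq2 and TopHat are named in the submitters' processing notes, without versions or roles, with the build mm10. The gene lengths and coordinates are those of the deposited table. FPKM times length gave whole reads within 0.05 read for 100% of values above 0, which gives the depth. The sources used here do not say how reads shared by genes were counted.

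The 11337 genes averaging 0.5 FPKM or more were tested on log2(FPKM + 0.5) with limma 3.58.1 in R 4.3.3, with a variance trend, two-sided, and Benjamini-Hochberg adjustment at 0.05. Tables and figures used Python 3.11.15, pandas 2.3.3 and matplotlib 3.10.9. The fit was tested on simulated data with noise drawn separately for each gene. Such data hold no trend of a whole library, such as that on gene length, so its effect on the fit was not covered. The members and lists were chosen with earlier results of these data known. In each list the 3 tested genes of highest mean FPKM and the gene of smallest p were named, and the 5 genes nearest to each of Ampd1, Ampd3 and Adssl1, leaving out predicted genes. The remarks on Ak4 and Myh genes by library were added after their values were seen. The fit was repeated under 21 alternatives covering the pseudocount, filter, scaling, variance moderation, library weights, voom, a replicate block, left-out libraries and gene length. A gene that this rule names and 1 of the 9 marker lists are not reported here.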

Additional observations from a re-analysis of the deposited data

Results flagged for a closer look

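In 70 groups of values (35 measures in each treatment group) the highest or lowest library was set against the others by Dixon's test. Chance alone marks about 1 group in 20, or 3.5 here, and 6 were marked. The measures are not independent of each other. Ammonium acetate 7 stood apart in 3 of them. Its Ampd3 share of AMP deaminase FPKM was 1.77%, against 0.644% to 0.777% in the other ammonium acetate libraries, and its Ampd1 share was 97.9%, against 99.0% to 99.2%. Its Ak4 value was 2.07 FPKM, against 0.429 to 0.543. Ammonium acetate 8 stood apart in Adsl, at 42.9 FPKM against 38.2 to 39.0, and in Paics, at 55.0 FPKM against 43.9 to 46.8. PBS 7 stood apart in Gmpr, at 117 FPKM against 99.8 to 101 in the other PBS libraries. What sets these libraries apart was not tested.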

How the results depend on the processing

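Over 21 alternatives 0 genes, 0 members and 0 genes of the 6 lists passed the threshold by limma, and Ampd2, Ampd3, Adssl1, Ak1 and Nt5c1a kept their direction. Not all alternatives could change a direction. Those of the filter and of variance moderation leave each member's fold change as it was. The replicate block gave the members the same fold changes as leaving out ammonium acetate 6. The sign of Ampd1 turned without ammonium acetate 6 and 8 (0.00064) and with library weights (0.14). With single libraries left out Ampd1 ran from -0.16 to 0.051, with a positive sign without PBS 7, ammonium acetate 7 or ammonium acetate 8. The sign of Adsl turned in TPM scaling (-0.043), without ammonium acetate 6 and 8 (-0.014) and with library weights (-0.011). With single libraries left out Adsl ran from -0.027 to 0.072, with a negative sign without PBS 7 or ammonium acetate 8. Adss turned with median-centred libraries (0.018) and ran from -0.13 to -0.00081 with single libraries left out. The members' median was -0.12 in TPM scaling and 0.0082 with median-centred libraries, and -0.10 to -0.012 with single libraries left out. TPM scaling and median-centring moved the median of all genes to -0.10 and 0.03, beside -0.03. Otherwise the cause of these changes was not tested.

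The labels share the numbers 4, 5, 7 and 8 between groups. Same-numbered libraries did not deviate together (correlations of -0.28, -0.07, -0.34 and -0.28), and pairs of unlike number ran from -0.29 to 0.35. Trends of a whole library, such as that on gene length, enter these correlations. They therefore cannot tell whether the numbers pair the libraries, and the labels do not say. With the number as a replicate block, which leaves out ammonium acetate 6, 0 genes passed the threshold, with 259 at an unadjusted p under 0.05 and the members' median was -0.06. Depth limits Ada most, with 4 to 25 reads, and its log2 difference ran from 0.040 without PBS replicate 4 to 0.39 with a pseudocount of 0.1.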
